A study of Mus musculus with 6 samples.

Results

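10 genes of 24054 in the deposited tables were chosen by symbol: the matrix metalloproteinases Mmp2, Mmp8, Mmp9, Mmp12, Mmp13, Mmp14 and Mmp19, and the tissue inhibitors of metalloproteinases Timp1, Timp2 and Timp3. Their transcripts were measured by bulk RNA sequencing in macrophages derived from the bone marrow of C57BL/6 mice of wild-type genotype, grown for 7 days in medium conditioned by L929 cells, a fibroblast line that secretes the growth factor M-CSF. Cells then spent 24 hours with oxLDL, an oxidised form of low-density lipoprotein that macrophages ingest, at 50 µg/ml, or without it. Each of the 2 groups held 3 samples numbered 1, 2 and 3, and samples of the same number were compared as pairs. Every sample title also contains "mix", whose meaning is not given, so cells or animals may have been pooled. It is not stated either whether the numbers mark separate animals or cultures, so a p-value here speaks only for the spread among these 6 samples, and some of it may be technical.

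Matrix metalloproteinases are zinc-dependent enzymes that cut collagens, elastin and other proteins around cells, and most are secreted as inactive proenzymes that need cleavage to become active. Tissue inhibitors bind the active enzymes and block them. In atherosclerotic plaques, macrophages are a known source of both, and the balance between them bears on how the matrix of the plaque is kept or lost. Transcript levels, as measured here, do not report on secretion, activation or activity.

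With oxLDL, Mmp14 transcripts fell in every pair, by 3.07-fold to 5.13-fold. Mmp12 transcripts were 4.31-fold to 66.7-fold higher in the pairs and Mmp8 transcripts 1.73-fold to 2.71-fold higher, but neither passed the test. For Mmp13, Mmp19 and Mmp9 the ratio of treated to untreated lay on one side of 1 in pairs 1 and 2 and on the other side in pair 3. Timp2, the only inhibitor above the count filter, was lower in all 3 pairs and did not pass. All 10 members were listed in both tables, and 7 passed the filter on low counts, while Mmp2, Timp1 and Timp3 did not.

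**Figure D1:**
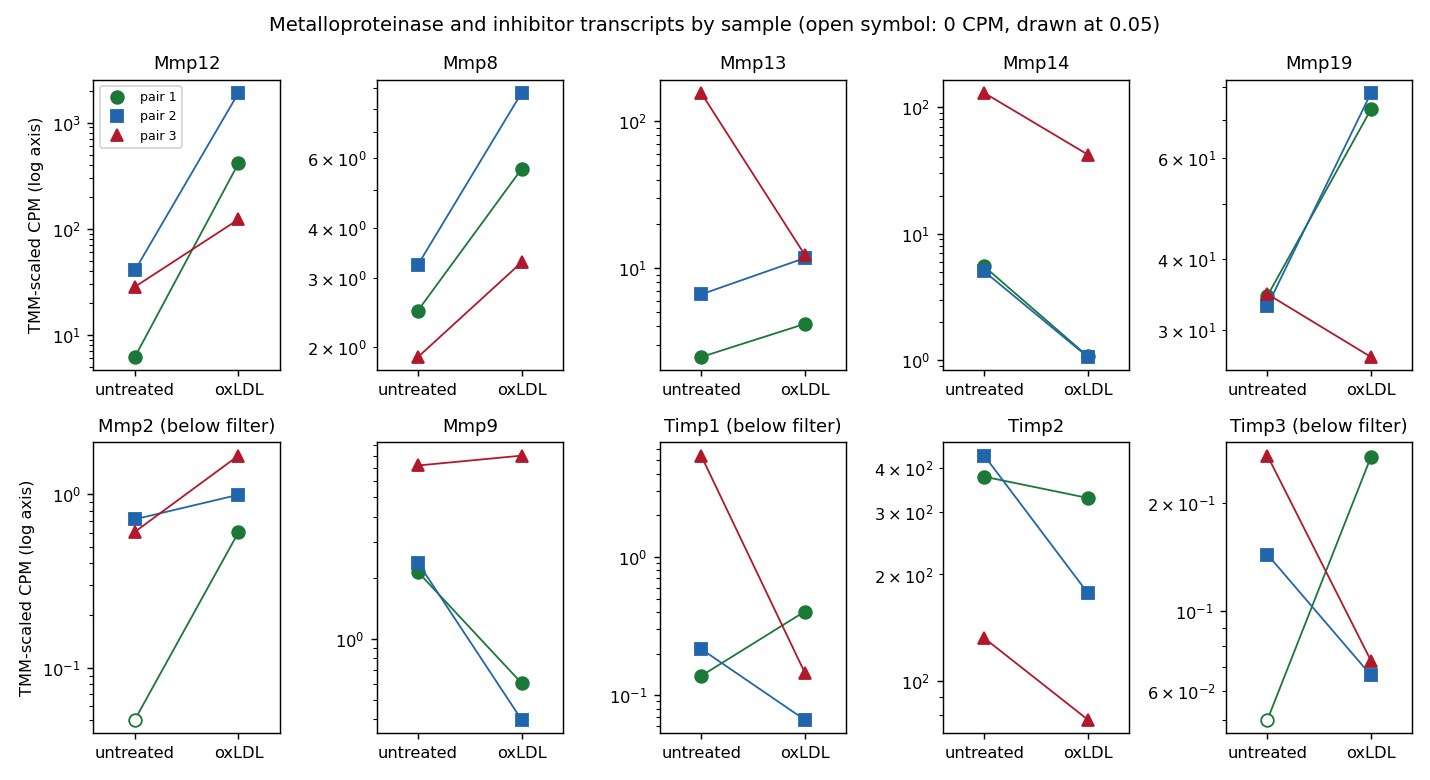
Level of each of the 10 genes in CPM (counts per 1000000 counts of a library scaled by the authors with TMM factors, log axis with its own range in each panel) in untreated and oxLDL-treated samples, with a line joining the samples of each pair and open symbols for 0 CPM. Mmp14 falls along all 3 lines although its 2 groups overlap, and Mmp12 is higher at the oxLDL end of all 3.

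Libraries held 13546572 to 15559310 expected counts, so 3 counts, the upper limit that a count of 0 allows, corresponded to 0.199 to 0.219 CPM (counting error only). The libraries numbered 3 stood apart from the rest. Deviations from the group means correlated across genes at r = 0.66, 0.45 and 0.70 between the samples of pairs 1, 2 and 3. Between a number 3 and any other number, r was -0.76 to -0.37. The 3 deviations of a gene within a group cancel out, so negative values in unmatched combinations are partly built in. Numbers 1 and 2 were not told apart by these correlations. For untreated sample 2 with oxLDL sample 1, r was 0.63, which exceeds that of pair 2. For the reverse combination of the numbers it was 0.20. All 8 macrophage markers found in the table exceeded 1 CPM in every sample, with Adgre1 under its older symbol Emr1. Their summed level was 12725 to 35807 CPM untreated and 8983 to 15956 CPM with oxLDL, with Lyz2 and Emr1 as the most abundant. Of these 8, edgeR called Fcgr1, an Fc receptor gene, lower (-3.99 ± 0.44, adjusted p = 0.0287). Cd68 was 1.13-fold to 2.16-fold higher in the pairs and was not called. Emr1 was 1.2-fold to 14.6-fold lower in the pairs, Itgam 2.1-fold to 7.0-fold and Lyz2 1.2-fold to 2.5-fold, and edgeR did not call them. DESeq2, fitted with the pair number as a block, called 16.3% of all genes. Besides Fcgr1 it called Itgam (adjusted p = 5.9e-08) and Lyz2 (adjusted p = 0.0108) lower, but not Emr1. Csf1r, Cd14 and Mertk changed direction between pairs. Fibroblast markers summed to at most 2.23 CPM, and markers of T, B and NK cells to at most 0.541 CPM. Dendritic cell markers summed to 5.30 to 17.0 CPM. Markers listed for endothelial cells, led by Vwf, summed to 55.4 to 205.5 CPM untreated and 199 to 248 CPM with oxLDL. Vwf was higher with oxLDL in every pair, and Pecam1 of the same list was 4.78-fold to 55.5-fold lower. Kdr was higher in pair 1 and lower in pairs 2 and 3. Of this list edgeR called 0 genes, while DESeq2 called Vwf higher (adjusted p = 3.1e-05) and Pecam1 lower (adjusted p = 3.5e-06). Markers of mast cells and basophils summed to 2.96 to 22.2 CPM untreated and 23.3 to 36.6 CPM with oxLDL, nearly all of it Kit. DESeq2 called Kit higher (adjusted p = 0.00072) and edgeR did not (adjusted p = 0.0925). Of the same list, Cpa3 had at most 4 counts in any sample, Mcpt8 at most 2 and Fcer1a at most 1. The part of such cells in the results below was not tested. In bulk samples, fewer cells of a type and less RNA per cell cannot be told apart. Levels below are the deposited TMM-scaled CPM. Fold changes are log2 values of oxLDL over untreated ± SE from edgeR's quasi-likelihood test with the pair number as a block, and "rose" or "fell" is said only of genes with a Benjamini-Hochberg adjusted p under 0.05 over all 11400 genes tested.

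Of the 7 tested members, 1 fell, Mmp14, and 0 rose. Over all tested genes 5.89% were called, with 3.98% lower and 1.91% higher with oxLDL. A count of 1 among 7 does not set the members apart from that background. An unadjusted p under 0.05 was reached by 4 members in the blocked fit and by 2 without the block, where 0 members and 0 genes in all passed in edgeR at the adjusted threshold. Over all 11400 genes, 3302 reached an unadjusted p under 0.05 in the blocked fit and 1674 without the block. DESeq2 with the block called 4 members, Mmp12, Mmp8, Mmp14 and Timp2, against 16.3% of all genes. The transcripts of these 4 also kept their direction in all 3 pairs, which 53.1% of all tested genes did.

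Mmp14 encodes a membrane-anchored metalloproteinase that cuts fibrillar collagen at the cell surface and activates the proenzyme of MMP2. Its level without oxLDL was 5.51 CPM in sample 1, 5.03 CPM in sample 2 and 129 CPM in sample 3. With oxLDL it was 1.07, 1.06 and 42.1 CPM in the same order. Both samples numbered 3 were far above the rest, so that the treated sample 3 exceeded untreated samples 1 and 2, and the groups overlapped. The fall within pairs was alike, with log2 ratios of -2.36, -2.24 and -1.62. The blocked estimate was -1.97 ± 0.19 (edgeR adjusted p = 0.0286), and the fit without the block gave -1.68 ± 1.88 (adjusted p = 0.721). In edgeR the call also ended without pair 1 (adjusted p = 0.166) and without pair 2 (adjusted p = 0.107), where the log2 fold changes were -1.87 and -1.90. Each of these fits called 0 genes in all, so the loss is not particular to Mmp14. The low level in treated samples 1 and 2 rests on 15.7 and 16 counts, and 3 of the 6 Mmp14 counts were not whole because RSEM shared some of its reads with other genes.

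The profile of Mmp14 over the 6 samples was set beside those of 8634 other genes with a mean of at least 3 log2 CPM. Each profile was centred on its own mean, and likeness was the root mean square difference in log2 units. The closest gene was Ccl2, a monocyte chemoattractant, at 0.285. Ccl2 measured 18.5, 18.0 and 605 CPM untreated and 3.96, 3.52 and 101 CPM with oxLDL. Next came its neighbouring family member Ccl7 at 0.451, with 11.2, 12.3 and 259.5 CPM untreated and 1.54, 1.06 and 51.3 CPM with oxLDL. Like Mmp14, both chemokines were high in the samples numbered 3 and lower with oxLDL in every pair. Further away lay H2-Q7 at 0.704, an MHC class I gene, followed by Socs3 at 0.807, an inhibitor of cytokine signalling, and H2-Q8 at 0.813. H2-Q7 and H2-Q8 have near-identical relatives, and their counts were not whole in any of the 6 samples, so their values are uncertain. These 5 genes were picked for their likeness, which carries no test. That they share the high samples numbered 3 and the lower levels with oxLDL goes with this choice and is not a separate result. In edgeR's blocked fit, which called 5.89% of all tested genes, Ccl2 (adjusted p = 0.0267), Ccl7 (adjusted p = 0.0286) and Socs3 (adjusted p = 0.0288) passed as lower. H2-Q7 (adjusted p = 0.0657) and H2-Q8 (adjusted p = 0.144) did not pass in edgeR.

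**Figure D2:**
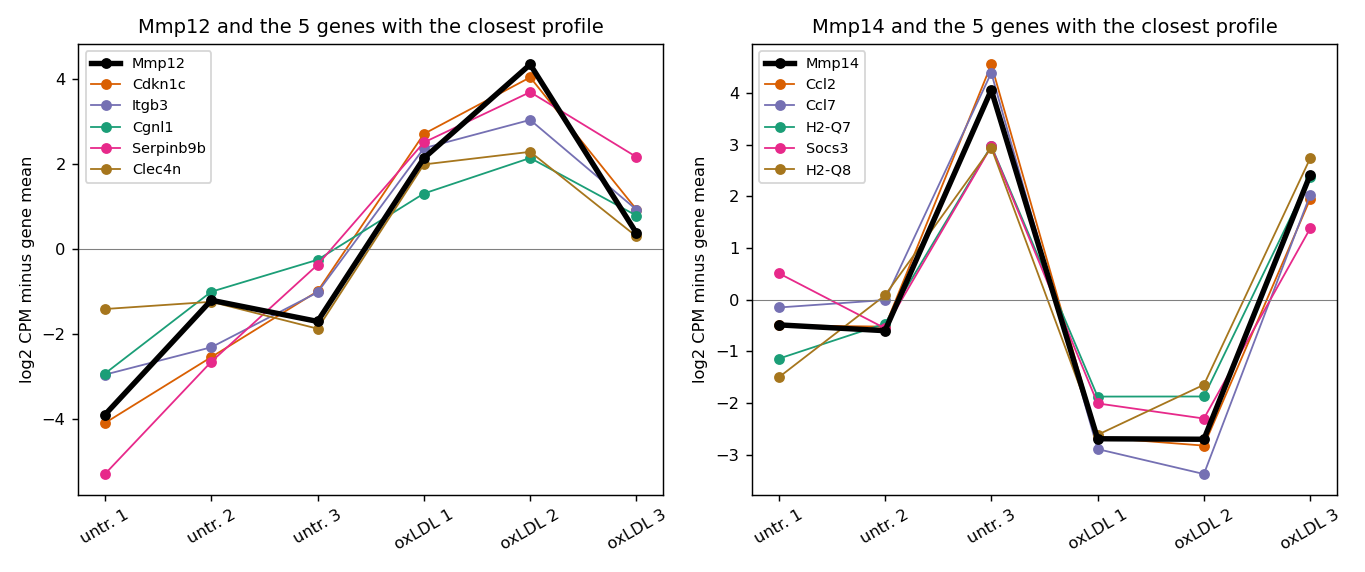
Log2 CPM minus the gene's own mean over the 6 samples (vertical axis) in untreated samples 1 to 3 and oxLDL samples 1 to 3, for Mmp12 (left) and Mmp14 (right, both black) and the 5 genes closest to each. Ccl2 runs almost on top of Mmp14, and both peak in untreated sample 3, while Mmp12 and its 5 genes are lowest in untreated samples.

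Mmp12, macrophage elastase, cuts elastin and is produced chiefly by macrophages. Untreated cells held 6.20, 40.5 and 28.4 CPM in samples 1, 2 and 3, and treated cells held 413, 1902 and 122 CPM. Every treated sample was above every untreated one, which held in the same direction for 10.8% of tested genes. The size of the change was uneven, with 66.7-fold, 46.9-fold and 4.31-fold higher levels in pairs 1, 2 and 3. Its log2 fold change of 4.68 ± 1.01 was matched or exceeded in absolute size by 0.219% of tested genes, and its SE was larger than that of most genes (percentile 99.5). It missed the threshold in edgeR with the block (adjusted p = 0.0689) and without it (5.02 ± 1.30, adjusted p = 0.179), and passed in DESeq2 with the block (adjusted p = 9.3e-05). With pair 3 left out, edgeR gave 5.79 ± 0.21 (adjusted p = 0.000484), in a fit that called 29.9% of all genes. Mmp12 counts were whole in all samples and ran from 90 to 28659, so counting error is a small part of this spread.

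Rank by rank, the 5 profiles nearest to that of Mmp12 were less close than the 5 nearest to Mmp14. Cdkn1c, an inhibitor of cyclin-dependent kinases, came first at a root mean square difference of 0.715, with 6.20, 18.2 and 53.2 CPM untreated and 703, 1765 and 206 CPM with oxLDL. Itgb3, the integrin beta 3 chain, followed at 0.881, with 2.27, 3.59 and 8.92 CPM untreated and 96.1, 152 and 35.4 CPM with oxLDL. Cgnl1, a junction protein, lay at 1.21, the serpin gene Serpinb9b at 1.27 and the lectin receptor Clec4n at 1.32. These 5 genes too were picked for their likeness, which carries no test. That treated sample 2 was highest for each, as for Mmp12, goes with this choice and is not a separate result. Of the 5, Clec4n alone passed in edgeR's blocked fit, which called 5.89% of all tested genes. Its log2 fold change was 3.06 ± 0.32 (edgeR adjusted p = 0.0286).

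Mmp8 and Mmp13 encode collagenases, which open the triple helix of fibrillar collagen. Mmp8, also known as neutrophil collagenase, measured 2.48, 3.23 and 1.89 CPM untreated and 5.64, 8.76 and 3.28 CPM with oxLDL. The groups did not overlap, although untreated sample 2 and treated sample 3 were nearly level, at 45 counts each. Its log2 fold change of 1.15 ± 0.24 missed the threshold in edgeR, with an adjusted p = 0.0641 in the blocked fit and 0.281 in the unblocked one, and passed in DESeq2 with the block (adjusted p = 0.0291). Neutrophil markers summed to 7.43 to 37.0 CPM untreated and 1.33 to 5.50 CPM with oxLDL, with 0 of the list called by edgeR. DESeq2 with the block, which called 16.3% of all genes, called S100a9 (adjusted p = 0.00968) and Ltf (adjusted p = 0.00414) lower. It did not call S100a8 or Ngp. Of the 9 listed neutrophil markers, 8 were in the table, and 1 of them, S100a9, exceeded 1 CPM in every sample. Ngp of this list was lower with oxLDL in pairs 1 and 2 and 2.37-fold higher in pair 3. The part of neutrophils in the Mmp8 values was not tested.

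Of the 7 tested members, Mmp13 had the widest range among untreated samples. It measured 2.48, 6.61 and 155 CPM untreated, a 62.7-fold range within the group, and 4.16, 11.7 and 12.3 CPM with oxLDL. The high value belongs to untreated sample 3 (2300 counts against 36 and 92). Within pairs the level was 1.68-fold higher in pair 1, 1.77-fold higher in pair 2 and 12.6-fold lower in pair 3. The blocked fit gave -0.74 ± 1.15 (edgeR adjusted p = 0.703). With pair 3 left out the direction turned, at 0.80 ± 0.22 (edgeR adjusted p = 0.0456), in a fit that called 29.9% of all genes. In pair 3 both Mmp13 and Mmp14 were lower with oxLDL, while in pairs 1 and 2 Mmp14 was lower and Mmp13 higher.

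**Figure D3:**
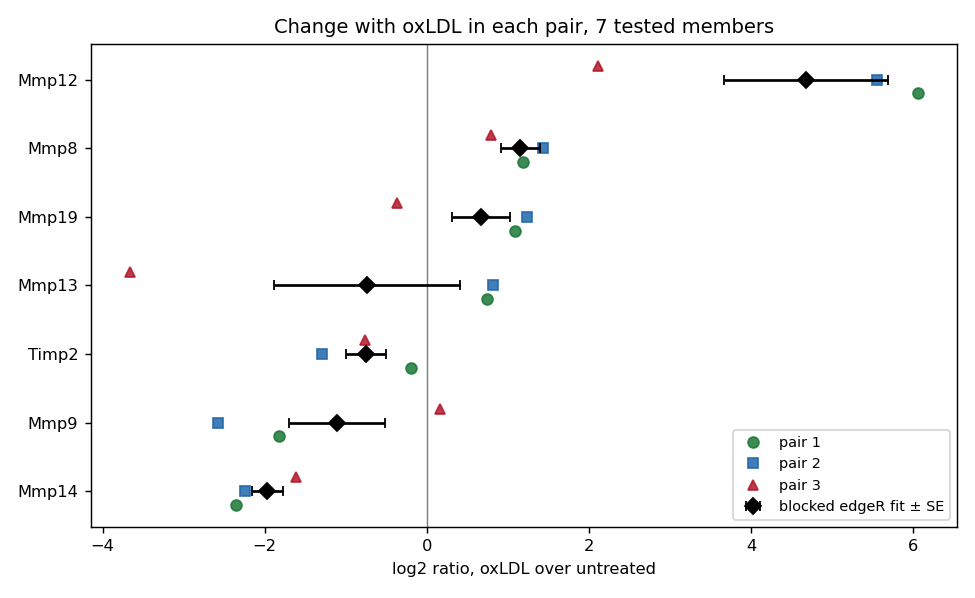
Log2 ratio of oxLDL over untreated (horizontal axis) for the 7 tested genes, with coloured symbols for the deposited CPM of pairs 1, 2 and 3 and black diamonds with bars for the blocked edgeR fit ± SE. Mmp14 is the tightest of the larger changes, and pair 3 lies on the other side of 0 from pairs 1 and 2 for Mmp13, Mmp19 and Mmp9.

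Mmp12, Mmp13 and Mmp8 lie in a cluster of metalloproteinase genes on chromosome 9. In the order of the RefSeq table for GRCm38.p6 its protein-coding genes are Mmp13, Mmp12, Mmp1b, Mmp3, Mmp1a, Mmp10, Mmp8, Mmp27, Mmp20 and Mmp7. Of these 10 genes, Mmp13, Mmp12, Mmp8 and Mmp27 passed the count filter, and the other 6 had 0 to 3 counts over all samples together. With oxLDL, the adjacent genes Mmp13 and Mmp12 were thus both higher in pairs 1 and 2, while in pair 3 Mmp13 was lower and Mmp12 higher. Mmp27, which was lower with oxLDL in pairs 2 and 3 and higher in pair 1, did not pass at -1.05 ± 0.62 on the log2 scale (adjusted p = 0.329, edgeR).

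The promoters of Mmp13 and Mmp12 are shown because these adjacent genes differed in direction in pair 3, and that of Mmp14 because it was the member that fell. Each sequence runs 5′ to 3′ from 250 bases before to 50 bases after a RefSeq transcript start of build GRCm38.p6, all 3 on the plus strand: Mmp13 at chr9:7272264-7272563, the second start of Mmp12 at chr9:7347124-7347423 and Mmp14 at chr14:54431348-54431647. Capitals mark TGANTCA, the letters that AP-1 factors of the FOS and JUN families bind.
Mmp13: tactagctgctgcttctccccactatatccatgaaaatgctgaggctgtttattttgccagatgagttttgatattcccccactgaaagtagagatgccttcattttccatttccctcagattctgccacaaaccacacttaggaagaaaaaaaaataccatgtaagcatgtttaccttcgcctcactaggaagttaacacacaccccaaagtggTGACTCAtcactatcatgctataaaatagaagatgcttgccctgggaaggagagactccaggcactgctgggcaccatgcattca
Mmp12: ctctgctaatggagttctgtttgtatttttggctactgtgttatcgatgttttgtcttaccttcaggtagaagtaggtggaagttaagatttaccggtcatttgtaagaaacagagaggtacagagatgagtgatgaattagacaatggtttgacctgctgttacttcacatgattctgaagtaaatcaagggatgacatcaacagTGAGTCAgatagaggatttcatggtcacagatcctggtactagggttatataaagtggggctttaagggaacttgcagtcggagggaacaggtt
Mmp14: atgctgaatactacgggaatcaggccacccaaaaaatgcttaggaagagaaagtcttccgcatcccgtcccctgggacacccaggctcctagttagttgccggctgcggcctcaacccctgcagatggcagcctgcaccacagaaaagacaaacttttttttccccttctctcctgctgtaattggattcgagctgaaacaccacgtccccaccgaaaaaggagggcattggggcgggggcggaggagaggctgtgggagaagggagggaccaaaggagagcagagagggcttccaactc

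The letters TGANTCA, which read the same on both strands, begin at position -35 in the Mmp13 promoter and at position -44 in that of the second Mmp12 start, counting the start site as 0. The window of the first Mmp12 start, chr9:7344147-7344446, does not hold them, and the second start was shown because it does. They are absent from the window of Mmp14. Over the 8 promoters matched for 7 members (Mmp8, Mmp12 with 2 starts, Mmp13, Mmp14, Timp1, Timp2 and Timp3), 2 held them, against 7.81% of 32851 promoters of the same length. The other 5 motifs searched on both strands were TGTGGT of RUNX factors (2 of 8 promoters, those of Mmp13 and Mmp14, against 16.8% of all), GGGA and CC around any 4 bases, of NF-kB (2 of 8, Mmp14 and Timp2, against 20.7%), TGACNNNGC of the antioxidant response element (1 of 8, Timp2, against 12.4%), TTCNNNGAA of STAT factors (0 of 8, against 8.30%) and TCACGTGA of MITF and TFE factors (0 of 8, against 0.974%). AP-1 letters and the antioxidant response element can overlap. A match is a description of these letters, not of a bound site.

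Mmp19 encodes a secreted metalloproteinase that acts on basement membrane components. It was level among untreated samples, at 34.5, 33.1 and 34.7 CPM, a 1.05-fold range that included sample 3. With oxLDL it measured 73.1, 78.1 and 27.0 CPM, higher in samples 1 and 2 and lower in sample 3. The blocked log2 fold change was 0.67 ± 0.36 (edgeR adjusted p = 0.294), and with pair 3 left out it was 1.17 ± 0.11 (adjusted p = 0.00246, edgeR). The fit without pair 3 called 29.9% of all genes. Mmp19 counts were not whole in any of the 6 samples, so a part of its reads was shared with other genes.

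Mmp2 and Mmp9 encode the gelatinases, which digest denatured collagen and type IV collagen. Mmp9 measured 2.13, 2.37 and 7.16 CPM untreated and 0.604, 0.398 and 8.01 CPM with oxLDL. It was 3.53-fold and 5.95-fold lower in pairs 1 and 2 and 1.12-fold higher in pair 3, from 9, 6 and 110 counts in the treated samples. The blocked fit gave -1.11 ± 0.59 (edgeR adjusted p = 0.287), and -2.14 ± 0.42 with pair 3 left out (adjusted p = 0.0183, edgeR). The fit without pair 3 called 29.9% of all genes. Osteoclasts also express Mmp9. Their 8 listed markers summed to 74.0 to 144.6 CPM untreated and 91.0 to 215 CPM with oxLDL. Nfatc1 and Atp6v0d2 made up most of this sum, while Calcr, Ocstamp, Dcstamp and Oscar had at most 5 counts in any sample. Of the 8, edgeR called Acp5 lower (-2.72 ± 0.34, adjusted p = 0.0307) and Atp6v0d2 higher (2.18 ± 0.25, adjusted p = 0.0288). The part of such cells in the Mmp9 values was not tested. Mmp2 had 0, 10 and 9 counts untreated and 9, 15 and 23 counts with oxLDL, at most 1.68 CPM. It was below the count filter, and a fit with no filter gave 1.47 ± 0.74 (edgeR adjusted p = 0.327).

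Timp2 encodes an inhibitor that, besides blocking metalloproteinases, bridges MMP14 and the MMP2 proenzyme at the cell surface. It measured 378, 433 and 132 CPM untreated and 329, 177 and 77.8 CPM with oxLDL. Levels were lowest in the samples numbered 3, the reverse of Mmp14, and the groups overlapped. Treated levels were 1.15-fold, 2.45-fold and 1.70-fold lower in pairs 1, 2 and 3. The log2 fold change of -0.75 ± 0.24 did not pass in edgeR, with an adjusted p = 0.127 in the blocked fit and 0.666 in the unblocked one, and DESeq2 with the block called it lower (adjusted p = 0.0294).

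Timp1 and Timp3, an inhibitor induced in many activated cells and a matrix-bound inhibitor, were at or near the detection limit in most samples. Timp1 had 2, 3 and 80 counts untreated and 5.91, 1 and 2 counts with oxLDL. The count of 80, or 5.41 CPM, was in untreated sample 3, where Mmp13 and Mmp14 were also highest. Fibroblast markers summed to 2.23 CPM in that sample against 0.431 and 0.826 CPM in the other untreated samples, and Pdgfra was at 0 in all samples. Of the 2.23 CPM, Pdgfrb made up 1.69 CPM and Dcn 0.338 CPM. In the same sample Col1a1, Col3a1 and Lum were at 0 and Col1a2 had 1 count. The part of fibroblasts in these values was not tested. Timp3 had at most 4 counts in any sample. With no filter, the log2 estimate was -2.26 ± 1.40 for Timp1 (adjusted p = 0.455, edgeR) and 0.02 ± 1.29 for Timp3 (adjusted p = 0.999, edgeR).

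Because a ratio of 2 transcripts within a library does not depend on how libraries are scaled, the count ratio of Timp2 to each metalloproteinase with at least 1 CPM in all samples was followed from untreated to treated. Against Mmp12 the log2 ratio changed by -6.26, -6.84 and -2.87 in pairs 1, 2 and 3 (mean change -5.33 ± 2.14, SD, n = 3 pairs). Against Mmp8 the mean change was -1.89 ± 0.73, and against Mmp19 it was -1.40 ± 1.07, negative in all 3 pairs for both. Against Mmp14 it was 1.33 ± 0.74, positive in all 3 pairs. Against Mmp13 the changes were -0.95, -2.11 and 2.89. Relative to Timp2, transcripts of Mmp12, Mmp8 and Mmp19 were thus more abundant with oxLDL in each pair and those of Mmp14 less abundant, while Mmp13 held no direction. These 5 ratios share the Timp2 counts and carry no test. Mmp9 is not among them, because it was under 1 CPM in treated samples 1 and 2 (0.604 and 0.398 CPM). Its own log2 ratio of oxLDL over untreated was -1.82, -2.57 and 0.16 in pairs 1, 2 and 3. That of Timp2 was -0.20, -1.29 and -0.76, so Mmp9 was lowered more than Timp2 in pairs 1 and 2 but not in pair 3.

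**Figure D4:**
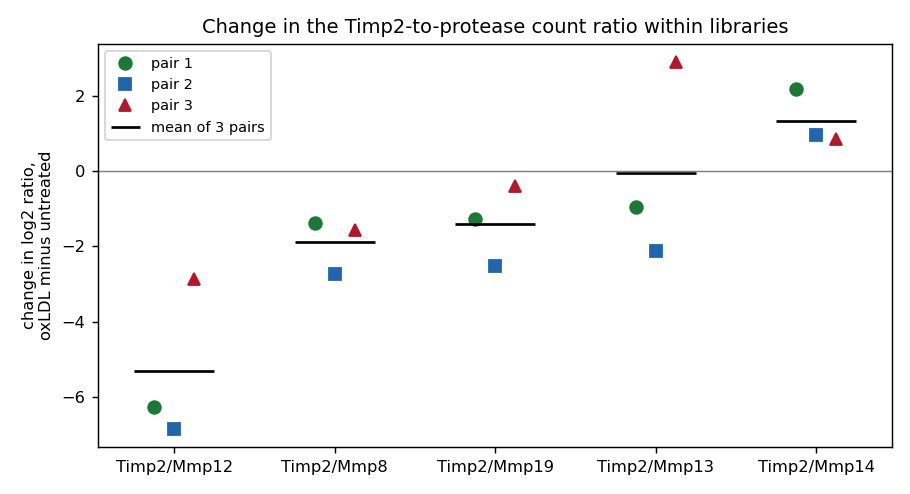
Change in the log2 ratio of Timp2 counts to those of 5 metalloproteinases (vertical axis, oxLDL minus untreated) in pairs 1, 2 and 3, with a bar at the mean. The Mmp14 ratio is above 0 in all 3 pairs and the Mmp12, Mmp8 and Mmp19 ratios are below 0.

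The wider system of matrix proteolysis was described with a list of 55 further genes, of which 23 passed the count filter and 10 had no count in any sample. In edgeR's blocked fit 0 of the 23 passed in either direction and 6 had an unadjusted p under 0.05, against 3302 of all 11400 genes tested, while 12 had a positive and 11 a negative log2 fold change, with a median of 0.11 against 0.0124 over all tested genes. Among 16 other metalloproteinases, 3 were tested (Mmp25, Mmp27 and Mmp28) and 5 had no count. Of the activators and cofactors, the urokinase receptor gene Plaur was at 1.17 ± 0.73 on the log2 scale (adjusted p = 0.346, edgeR). The substrate gene Vcan, for versican, was at 0.97 ± 0.28 (adjusted p = 0.105, edgeR).

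Among transcription factors known to act on metalloproteinase promoters, the log2 estimate was -1.40 ± 0.44 for Ets2 (adjusted p = 0.125, edgeR), 1.22 ± 0.29 for Runx2 (adjusted p = 0.0793) and 1.20 ± 0.26 for Fosl2 (adjusted p = 0.0688). Fosl2, an AP-1 subunit, measured 19.2, 36.3 and 44.3 CPM untreated and 42.5, 54.7 and 160 CPM with oxLDL, higher in every pair. Runx2 measured 4.68, 6.04 and 18.2 CPM untreated and 15.9, 17.1 and 25.6 CPM with oxLDL, also higher in every pair. Ets2 measured 256, 158.5 and 192 CPM untreated and 48.8, 53.1 and 165 CPM with oxLDL, lower in every pair and least so in pair 3. Jun, another AP-1 subunit, measured 152, 166 and 102 CPM untreated and 121, 143 and 69.0 CPM with oxLDL, lower in every pair. Its log2 estimate was -0.37 ± 0.13 (adjusted p = 0.145, edgeR). Of the other tested AP-1 subunits, Junb was lower in pairs 1 and 2 only, Jund in pair 3 only and Fos in pair 2 only. DESeq2 with the block called Ets2, Runx2 and Fosl2 and no other of the 23 tested genes of the list, against 16.3% of all genes. This count does not set the list apart from that background. With pair 3 left out, edgeR called 9 genes of the list, 6 higher (Cd44, Fosl2, Plau, Plaur, Runx2 and Vcan) and 3 lower (Ets2, Junb and Lrp1). It also called 6 of the 7 tested members, with Timp2 the exception, against 29.9% of all genes.

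**Figure D5:**
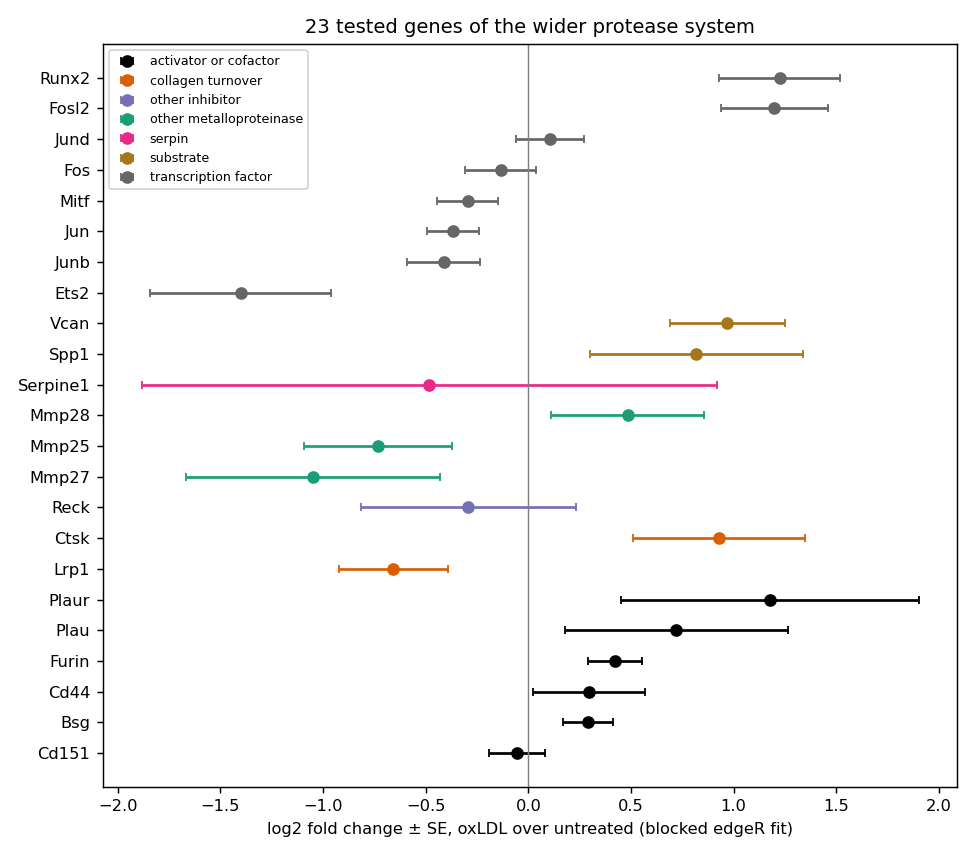
Log2 fold change ± SE with oxLDL (horizontal axis, blocked edgeR fit) of the 23 tested genes of the wider protease system, coloured by role. Runx2, Fosl2 and Plaur lie furthest above 0 and Ets2 furthest below, and none passed the threshold in this fit.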

How the data were processed

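Groups and pair numbers were taken from the sample titles. The members, the lists and the use of the blocked fit as the main one were decided with earlier results of these data known. The authors deposited expected counts from RSEM 1.2.15, which with Bowtie2 2.1.0 is listed in the submitters' processing notes. These counts were rounded to whole numbers, since 10.4% to 11.1% of values per sample were not whole (tolerance 0.005). The second table the authors deposited holds a normalised signal, CPM of TMM-scaled libraries per the file's name. All its values came out as whole reads (100% per sample within 0.005), at least 99.9% equalled the rounded counts, and an edgeR fit on them called 672 genes. The notes list hg19 although the samples are mouse, so coordinates refer only to the RefSeq promoter table. Annotation and strand setting are not given in the sources used here.

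Genes were kept by filterByExpr (minimum count 10, total 15), TMM-scaled and tested with edgeR 4.0.16 in R 4.3.3 (robust quasi-likelihood fit over all genes, pair number as a block). The SE is the fold change divided by the square root of F. Pairing was checked on same-numbered samples, whose deviations correlated above the limit of 0.1 in all 3 pairs. Unmatched samples numbered 1 and 2 also correlated above it (r = 0.63 and 0.20), so the check sets number 3 apart and does not tell pair 1 from pair 2. All 10 members are described. Of the list of 55 genes, those past the threshold and the 6 with the largest changes among the rest are named. The other tested AP-1 subunits are set beside Fosl2. The 5 closest profiles are given for Mmp12 and Mmp14, chosen for their earlier results. Log2 CPM for profiles used a prior count of 2. Promoter motifs were chosen after the files were seen. Ratios with Timp1 and Timp3 are left out because most of their counts are at or near 3. Those with Mmp2 and Mmp9 are left out because these genes were under 1 CPM in some samples. Alternatives were DESeq2 1.42.0, other size factors, other filters, no block, and leaving out pairs or libraries.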

Additional observations from a re-analysis of the deposited data

How the results depend on the processing

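Members called numbered 1 with the replicate block, 0 without it and 4 in DESeq2 with the block. Leaving out a pair gave 0 to 6 members, and leaving out a library without the block gave 0 each time. Over all genes the count was 672 with the block, 0 without it and 1853 in DESeq2. Leaving out pair 3 raised it to 3446, and leaving out pair 1 or pair 2 took it to 0. Among unpaired fits, 737 genes were called with untreated sample 3 left out, 31 with oxLDL sample 3 left out and 0 with any other library left out. For the list of 55 genes the count was 0, against 3 in DESeq2, 9 without pair 3 and 1, Runx2, without the block and untreated sample 3. Another size factor, no filter, a filter of at least 1 CPM in all samples and the recovered reads left the members' count at 1, with Mmp14 as the gene. Leave-one-out values of Mmp14 ran from -5.46 to 1.49, the positive value from the unpaired fit without untreated sample 3, which leaves the high oxLDL sample 3 without its partner. Mmp13 ran from -1.77 to 0.80 in paired and from -3.14 to 1.05 in unpaired fits and was positive without pair 3 (0.80) and, unpaired, without untreated sample 3. Mmp9 ran from -2.95 to 0.41, positive in the unpaired fits without untreated sample 3 (0.41), oxLDL sample 1 (0.089) or oxLDL sample 2 (0.13). Mmp12 (3.41 to 5.79), Mmp8 (0.81 to 1.50), Mmp19 (0.36 to 1.17) and Timp2 (-1.30 to -0.32) kept their direction in all fits run. The mean change of the Timp2 to Mmp13 ratio (-0.05) ran from -1.53 to 0.97 when a pair was left out, and those of the other 4 ratios kept their sign. Mmp14, Mmp9, Mmp2, Timp1 and Timp3 had libraries of under 20 counts, which limits the precision of their values.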
